A study of Homo sapiens with 2 samples.

Results

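Human mitochondria carry a small genome of their own that is transcribed and translated inside the organelle. The 10 mRNAs described here are the products of MT-ND1, MT-ND2, MT-ND4, MT-ND5, MT-ND6, MT-CYB, MT-CO1, MT-CO2, MT-CO3 and MT-ATP6. They were chosen by gene name and not by a rule on their counts, though with earlier results of these data known. They make up 10 of the 13 protein-coding genes of the mitochondrial genome and 10 of the 62704 genes in the count tables. All 10 were listed in both libraries and all 10 matched the annotation of chromosome M.

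The data are 2 split-seq libraries of brain organoids grown from H9, a human embryonic stem cell line. The library of cells pooled CO at days 45, 55 and 70 (control cerebral organoids from the STEMdiff kit), DISS at days 48, 55 and 70 (CO taken apart to single cells at day 45 and reaggregated) and CONS at day 55 (CO freed of Matrigel at day 13 and encased in 3% low-gelling agarose), all dissociated with Accumax. The library of nuclei held nuclei of CO at day 45, isolated from whole organoids and from their single-cell suspensions. In split-seq, RNA is tagged in successive rounds of wells inside fixed cells or nuclei, and each combination of well tags stands for 1 cell or nucleus.

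Every barcode of a library carried the same sample name, so condition, day and organoid of a barcode are not known here. Each library was therefore 1 sample without replicates, no test was run and no p-value is given. SD values are between sub-libraries (8 of cells, 2 of nuclei), which are technical splits of 1 library, and 95% intervals (exact Poisson for levels, exact Clopper-Pearson for shares) cover counting error only. Barcodes were kept with more than 500 genes and more than 1000 transcripts and with no limit on mitochondrial transcripts, which left 20273 of 1303455 barcodes of cells (median 2613 transcripts) and 14256 of 197446 barcodes of nuclei (median 3883.5). Barcodes of 10 to 100 transcripts served as the background of free RNA. Of the kept combinations of wells and sub-library names, 99 occurred in both libraries. Within cells, 2662 of 16314 well combinations were kept in at least 2 sub-libraries, and within nuclei 636 of 13620.

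The oxidative phosphorylation system of the inner mitochondrial membrane is built from subunits of both genomes. MT-ND1 to MT-ND6 encode membrane subunits of complex I, which takes electrons from NADH. MT-CYB encodes cytochrome b of complex III, MT-CO1 to MT-CO3 the core of cytochrome c oxidase (complex IV), and MT-ATP6 a subunit of the proton channel of ATP synthase (complex V). The 2 strands are transcribed as long precursors from which most mRNAs are cut out at flanking tRNAs. Whole cells contain mitochondria, while preparations of nuclei are made to remove them.

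The positions of the genes bear on what their counts can tell apart. On chromosome M of hg38 (16569 bases, annotation of GENCODE release 44), 9 of the 10 genes lie on the plus strand: MT-ND1 at chrM:3307-4262, MT-ND2 at chrM:4470-5511, MT-CO1 at chrM:5904-7445, MT-CO2 at chrM:7586-8269, MT-ATP6 at chrM:8527-9207, MT-CO3 at chrM:9207-9990, MT-ND4 at chrM:10760-12137, MT-ND5 at chrM:12337-14148 and MT-CYB at chrM:14747-15887. MT-ND6 lies on the minus strand at chrM:14149-14673. None has an intron. MT-ND5 and MT-ND6 meet at their 3′ ends, so the last bases of both genes are shown here, 5′ to 3′ on the strand of each gene, with the last codon in capitals. The MT-ND5 stretch is at chrM:14137-14148 (plus) and the MT-ND6 stretch at chrM:14149-14160 (minus).
MT-ND5: ctaatcacaTAA
MT-ND6: cgggggaatAGG
Whether counting used the strand is not given in the sources used here. Without it, reads of MT-ND6 and reads that run past the end of MT-ND5 cannot be told apart. MT-ATP6 likewise shares bases with MT-ATP8 and MT-CO3, and MT-ND4 with MT-ND4L.

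The assay starts reverse transcription with oligo-dT and random primers. Stretches of A inside a gene are therefore shown for the 5 genes that hold a run of at least 6, with the run in capitals and 11 bases on each side, all on the plus strand of hg38. They lie at chrM:4165-4192 (MT-ND1), chrM:4594-4622 and chrM:5271-5298 (MT-ND2), chrM:6681-6709 (MT-CO1), chrM:10803-10830 and chrM:11021-11049 (MT-ND4) and chrM:12407-12436 and chrM:13220-13248 (MT-ND5).
MT-ND1: cacctcctatgAAAAAActtcctaccac
MT-ND2, first: cagttctaaccAAAAAAAtaaaccctcgt
MT-ND2, second: gaagaattcacAAAAAAcaatagcctca
MT-CO1: tactactccggAAAAAAAgaaccatttgg
MT-ND4, first: catgactttccAAAAAAcacataatttg
MT-ND4, second: ccactatcacgAAAAAAActctacctctc
MT-ND5, first: ttaaccctaacAAAAAAAActcataccccc
MT-ND5, second: aaaatgacatcAAAAAAAtcgtagccttc
MT-CO2, MT-CO3, MT-ATP6, MT-ND6 and MT-CYB hold no run of this length. The genes with a run include both the 3 with the highest and the 2 with the lowest levels per length in cells, given next. A part of these runs in the counts was not tested.

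In kept cells the 10 mRNAs made up 572892 of 157977590 transcripts, 0.363% (SD 0.0127), with sub-libraries between 0.346% and 0.378%. In kept nuclei they made up 15944 of 72220762 transcripts, 0.0221% (SD 0.0018). The median cell held 0.197% and the upper quartile of cells began at 0.374%, while the median nucleus held 0. The mitochondrial rRNAs MT-RNR1 and MT-RNR2 made up far more, 2.73% of transcripts in cells and 0.395% in nuclei. There were thus 7.53 (SD 0.327) rRNA counts for each mRNA count in cells and 17.9 in nuclei.

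Levels are given as CPM, the counts of a gene scaled to the total of transcripts of the barcodes, and were compared between genes as CPM per kb of gene. In kept cells MT-ND5 had the highest level of the 10 (662, SD 49.9), followed by MT-CO1 (539, SD 16.4) and MT-ND4 (379, SD 14.9). MT-ATP6 (254, SD 10.6), MT-CO3 (237, SD 7.43) and MT-CO2 (226, SD 13.5) came next, and their ranges over the 8 sub-libraries overlapped. MT-CYB stood at 200 (SD 9.54), MT-ND6 at 148 (SD 11.9), MT-ND2 at 128 (SD 5.6) and MT-ND1 at 126 (SD 5.2). The last 2 were closer than their SD, and the range of MT-ND6 overlapped both of theirs. Members of 1 complex were therefore spread over the scale, with complex I at both ends.

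In kept nuclei the order at the top was another. MT-CO1 was highest at 43.1 CPM per kb, MT-ND5 followed at 34.8 and MT-ND4 at 22.9. The sub-libraries of MT-CO1 (41.1 and 44.8) lay above those of MT-ND5 (32.5 and 36.8). MT-CO3 (16.2), MT-CYB (12.5), MT-ATP6 (12.2), MT-CO2 (10.7) and MT-ND6 (8.47) came between, and MT-ND1 (6.62) and MT-ND2 (6.03) were again lowest. Counts in nuclei were small, with 321 of MT-ND6, 454 of MT-ND2 and 457 of MT-ND1 against 4803 of MT-CO1.

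**Figure D1:**
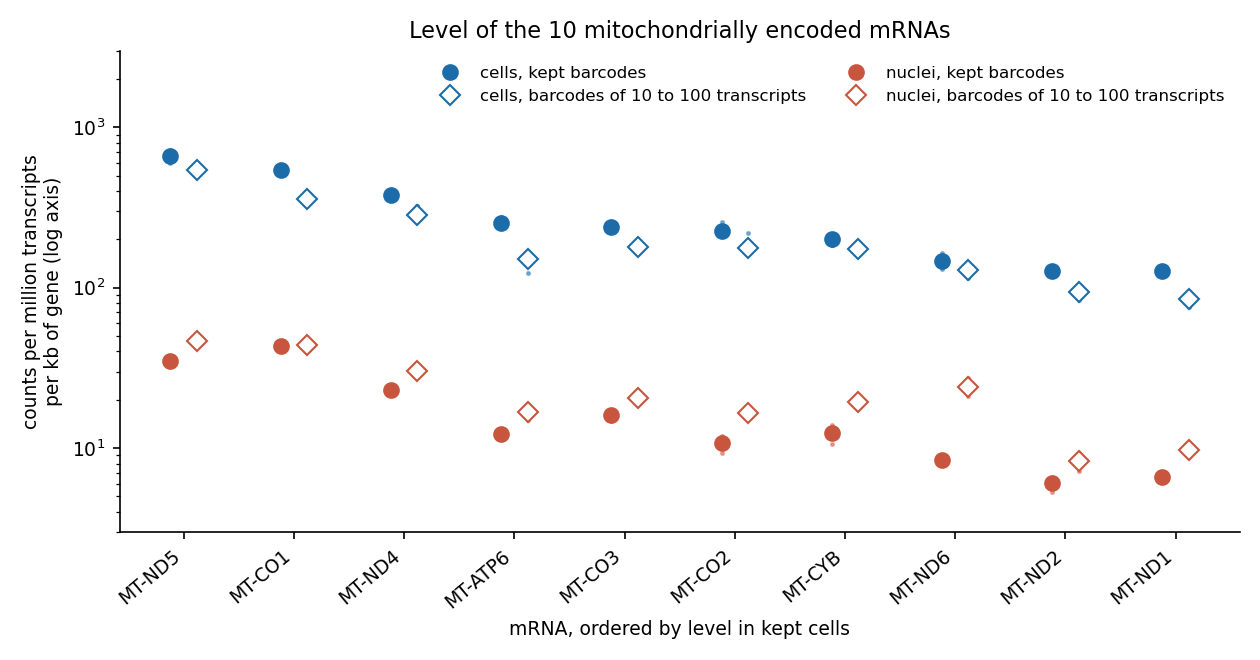
Level of each of the 10 mRNAs in CPM per kb of gene (log axis). Filled circles are kept barcodes and open diamonds barcodes of 10 to 100 transcripts of cells (blue) and nuclei (red), and small dots are sub-libraries. In kept cells levels run from 662 (MT-ND5) to 126 (MT-ND1), and every mRNA is lower in nuclei.

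The 3 genes with the highest levels took most of the counts. Of all counts of the 10 mRNAs, MT-ND5 held 33.1% (SD 1.42) in cells and 28.6% (SD 0.17) in nuclei, MT-CO1 22.9% (SD 0.445) and 30.1% (SD 0.652), and MT-ND4 14.4% and 14.3%. The other 7 mRNAs held between 2.14% (MT-ND6) and 6.28% (MT-CYB) in cells, and between 2.01% and 6.44%, for the same 2 genes, in nuclei.

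Of the mitochondrial protein genes outside the 10, MT-ND4L (419 CPM per kb) and MT-ATP8 (358) lay within the range of the members in cells, and MT-ND3 (69.7) lay below it. Nuclear copies of mitochondrial genes, annotated as pseudogenes, can share reads with the members. The tables list 353 copies of the 10 genes, with 14249 counts in kept cells, equal to 2.49% of the members' counts, and 1084 in kept nuclei, equal to 6.8%. One copy, MTATP6P1, held 6391 counts in cells beside 27323 of MT-ATP6 itself, so the level of MT-ATP6 is uncertain by the way its reads were divided. In nuclei the copies of MT-ND6 reached 35.8%, those of MT-ATP6 34.6% and those of MT-ND2 25.8% of the counts of their gene.

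Every member was higher in the library of cells than in the library of nuclei. Across the 13599 genes compared, 7.89% were at least 2-fold higher in cells and the median ratio was 1.12. Genes were compared where the mean of both libraries reached 5 CPM, which MT-ND6 (4.44 CPM in nuclei) did only through its level in cells. MT-ND6 is therefore given as a value. The other 9 reached 5 CPM in each library, and all 9 passed the 2-fold limit. The median ratio of the 10 was 18.2, and they held ranks between 8 and 18 by ratio. The comparison is between 2 single libraries that also differ in day, condition, kit and type make-up, and these cannot be told apart. Among complex I members, MT-ND1 stood at 121 CPM in cells and 6.33 in nuclei, a ratio of 19.1. MT-ND2 had the highest ratio of the 10 (133 against 6.29, 21.2), followed at lower ratios by MT-ND5 (1200 against 63.1, 19), MT-ND6 (77.5 against 4.44, 17.4) and MT-ND4 (523 against 31.5, 16.6). MT-CYB of complex III was at 228 and 14.2 CPM, a ratio of 16. In complex IV, MT-CO2 (154 against 7.34) had a ratio of 21, MT-CO3 (186 against 12.7) of 14.7 and MT-CO1 (831 against 66.5) of 12.5, the lowest of the 10. MT-ATP6 stood at 173 and 8.32, a ratio of 20.8. The lowest ratio was that of the mRNA with the highest level per length in nuclei. The rRNAs had lower ratios, 7.23 for MT-RNR1 and 6.71 for MT-RNR2. In background barcodes the ratio of cells to nuclei was lower for each of the 10, from 5.34 (MT-ND6) to 11.7 (MT-ND5).

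Nuclear genes for partners of these proteins were also mostly higher in cells, to a smaller degree. Over kept nuclei, 5 CPM was reached by 32 genes of complex I, 5 of complex III, 7 of complex IV, 12 of ATP synthase and 22 for mitochondrial gene expression. The other genes tested here, UQCR10, UQCRQ, COX8A and COX6A1 among them, met the limit only through cells. The counts and medians below include them. Of 35 tested nuclear subunits of complex I, 11 were at least 2-fold higher in cells (median ratio 1.64), with NDUFB10 at 5.79 and NDUFA1 at 4.87, and NDUFA10 at 0.876 and NDUFA8 at 0.892. Of complex III subunits 5 of 8 passed (median 2.56), with UQCR10 at 6.01 and UQCRQ at 5.7, while UQCRC2 was at 1.06 and UQCRH at 1.25. Complex IV had 9 of 11 (median 3.66), led by COX8A at 10.3 and COX6A1 at 6.05, with COX6C at 1.46 and COX7A2 at 1.94. ATP synthase had 9 of 14 (median 2.16), with ATP5ME at 4.19 and ATP5F1D at 3.91, and with ATP5F1C at 0.781 and ATP5PB at 1.35. Genes for copying, transcribing and processing mitochondrial nucleic acids stood nearer to all genes, with 2 of 24 past 2-fold (median 1.2). These were TRMT10C, part of mitochondrial RNase P (2.25), and the transcription factor TFB2M (2.1), while TFB1M was at 0.803 and MTERF1 at 0.84. None of the genes in these lists was at least 2-fold lower in cells, a side that held 0.5% of all genes. The noncoding RNAs NEAT1 and MALAT1, which stay in the nucleus, had ratios of 0.403 and 0.794.

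Summed over all kept cells, the share of the mRNAs was somewhat above background. For the sum this held only with choroid plexus-like cells, a type described below. Kept nuclei held less than their background. In cells the share was 0.363% in kept barcodes and 0.273% (SD 0.0131) in 1022725 background barcodes. The 1612 choroid plexus-like cells held 1.14%. Without them, radial glia-like cells, another type, held 0.234% and all remaining kept cells 0.258%, both below this background. Types within this remainder lay on both sides of it. Dividing-like cells (0.343%) and the large unnamed class (0.275%) were above it. Intermediate progenitor-like (0.243%), excitatory neuron-like (0.19%) and glycolytic-like cells (0.104%) were below it. With choroid plexus-like cells included, the ratio of kept to background levels was above 1 for all 10, from 1.15 (MT-ND6 and MT-CYB) to 1.68 (MT-ATP6). MT-ATP6 (173 against 103 CPM) and MT-CO1 (831 against 550, ratio 1.51) passed 1.5-fold, 2 of 10 beside 2.25% of 14287 genes, and none was lower, beside 1.89%. Against barcodes of 100 to 500 transcripts the median ratio of the 10 was 1.17 in place of 1.32 and none passed, and MT-CYB turned below its background (228 in kept cells, 254 CPM at 101 to 500 transcripts). The rRNAs did not share this difference, with MT-RNR1 at 1.04 and MT-RNR2 at 0.893, so that the background had 10.5 rRNA counts for each mRNA count. In nuclei the share was 0.0221% in kept barcodes and 0.0285% in 167580 background barcodes, and all 10 ratios were below 1. MT-CO1 was nearest to its background (66.5 against 68 CPM, ratio 0.978) and MT-ND6 farthest from it (4.44 against 12.7, ratio 0.351). Of the 9 members with at least 5 CPM in kept nuclei, MT-CYB (0.642) and MT-CO2 (0.649) were at least 1.5-fold lower, beside 4.01% of 12981 genes, and none was higher, beside 2.59%. MT-ND6 reached the limit of 5 CPM, set on the mean of both groups, only through its background and is given as a value. The choice of background decided the size of this difference, since against barcodes of 100 to 500 transcripts the median ratio of the 10 was 0.141 in place of 0.724. The share of all genes past 1.5-fold against that background was not computed. The background count of MT-ND6 was 83, which gives an interval of 10.1 to 15.7 CPM, above the 3.97 to 4.96 of kept nuclei. Few nuclear subunit genes stood apart from their background. In cells 2 of 9 complex III genes and 2 of 11 complex IV genes were at least 1.5-fold higher and none of 36 complex I, 15 ATP synthase and 24 mitochondrial gene expression genes was. In nuclei none of these lists held a gene past 1.5-fold.

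Shares of barcodes with a count were compared after each barcode was thinned to 1000 transcripts, which left out no barcode. Of cells, 77.9% (77.3 to 78.5) had a count of at least 1 of the 10 mRNAs, and 51.8% had at least 2 of them. Draws of the same size from the background of each barcode's own first-round well would give 84% with at least 1. MT-ND5 was found in 50.5% of cells (56.8% from background), MT-CO1 in 37.4% (38.9%), MT-ND4 in 28.9% (30.2%) and MT-CYB in 16.4% (17.4%). The other 6 were found in between 5.74% (MT-ND6) and 12.8% (MT-CO3), each slightly above the background value. These draws took 1 mean share for all barcodes of a well, while a spread of shares between barcodes lowers detection at the same mean. Whether detection of a member at this depth differs from background RNA can therefore not be decided from them, in cells or in nuclei. Of nuclei, 12.5% (11.9 to 13.0) had at least 1 member beside 22.6% from background, and each of the 10 was below its background value. MT-CO1, the most frequent, was found in 4.88% of nuclei (6% from background) and MT-ND6, the least frequent, in 0.372% (1.25%). Without thinning, 91.5% of cells and 32% of nuclei had a member.

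Barcodes with a large share of these mRNAs were few. More than 1% came from the 10 mRNAs in 830 cells (4.09%) and 26 nuclei (0.182%), and the highest shares were 7.13% and 7.78%. No barcode had 20% from the 10 mRNAs, while 95 cells and 28 nuclei had over 20% once all mitochondrially encoded transcripts were counted.

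Types were defined by clustering without any mitochondrially encoded gene, so that the members did not shape the clusters, and a cluster was given a name only from marker genes of that type. The members were far from even across types in cells. Choroid plexus-like cells (1612 barcodes) held 1.14% (SD 0.126), the most of any named type. Choroid plexus epithelium is the secretory lining that makes cerebrospinal fluid and is known as rich in mitochondria. These clusters had the markers TTR, HTR2C, CLIC6, OTX2 and SLC4A5. Dividing-like cells (3510) held 0.343% (SD 0.0286), intermediate progenitor-like cells (901) 0.243% (SD 0.0231), radial glia-like cells (2038) 0.234% (SD 0.0137), excitatory neuron-like cells (1958) 0.19% (SD 0.0103) and glycolytic-like cells (1127) 0.104% (SD 0.0107). Sub-library ranges of intermediate progenitor-like and radial glia-like cells overlapped, and those of the other neighbours in this order did not. The largest class, 9127 barcodes (45% of kept cells), stayed unnamed and held 0.275%.

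Background RNA differed between the wells that types came from, and each type was therefore set beside the background of its own wells. Choroid plexus-like cells held 2.8 times their background (1.14% against 0.408%). Dividing-like cells were close to it, at 1.09 times (0.314%). Intermediate progenitor-like (0.878), radial glia-like (0.859) and excitatory neuron-like cells (0.821) lay below it, and glycolytic-like cells held 0.375 times their background of 0.276%. An unnamed cluster of 2424 barcodes led by KCTD16 and ADARB2 had nearly the same share as glycolytic-like cells, 0.103%, but came from wells of low background and stood at 1.06 times it. Without the naming condition added after the marker results were seen, the glycolytic-like type held 3551 cells at 0.103%, this cluster included.

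**Figure D2:**
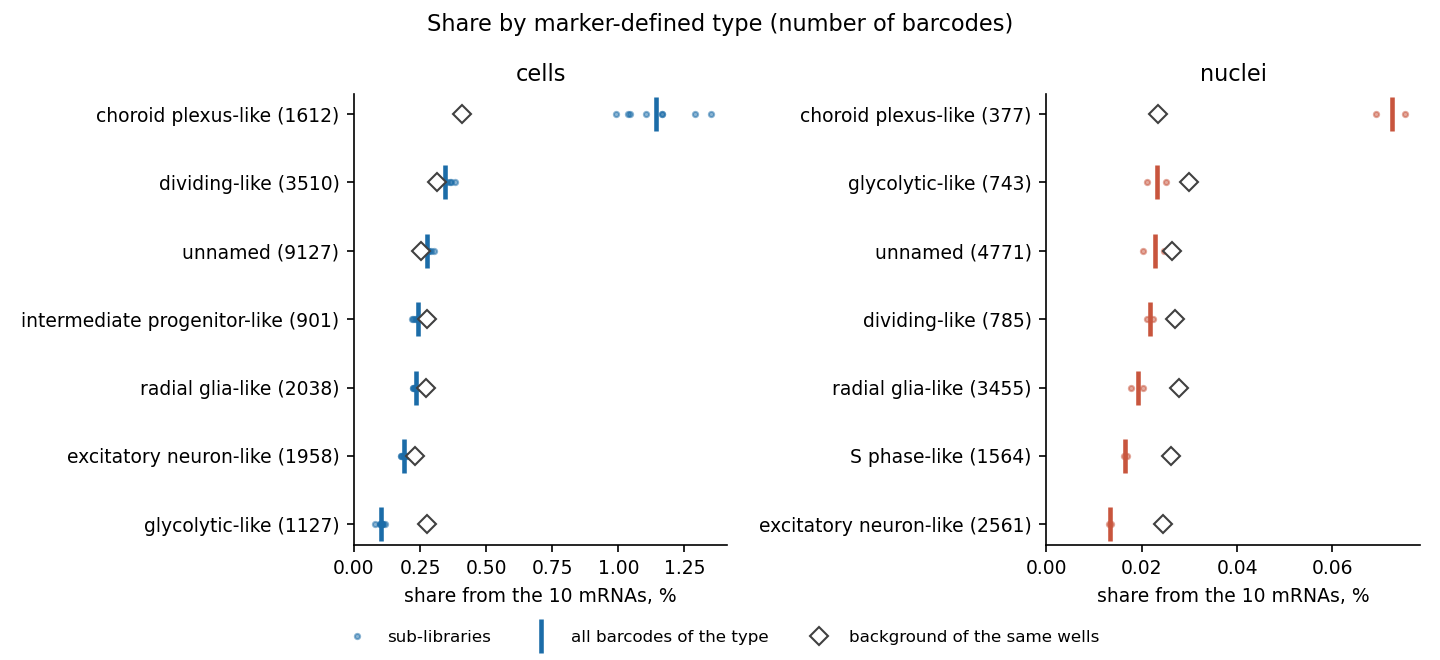
Share of transcripts from the 10 mRNAs in each marker-defined type, in percent, for cells (left) and nuclei (right, on a smaller scale). Vertical bars are all barcodes of a type, dots its sub-libraries and open diamonds the background barcodes of the same first-round wells, with the number of barcodes in parentheses. Summed over their wells, choroid plexus-like barcodes lie to the right of their background in both libraries, at 1.14% and 0.0725%, though not in every single well.

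The difference of choroid plexus-like cells extended to each member. Against all other kept cells, all 10 were at least 1.5-fold higher, beside 15.9% of 14313 genes (17.8% were lower), and the median ratio of all genes was 0.934. In complex I, MT-ND5 stood at 3825 CPM (sub-libraries 3225 to 4785, ratio 4.55), MT-ND4 at 1637 (4.42), MT-ND1 at 388 (4.61), MT-ND2 at 377 (3.78) and MT-ND6 at 260 (4.95). MT-CYB stood at 614 (ratio 3.51). In complex IV, MT-CO1 at 2799 had the highest ratio of the 10 (4.98) and MT-CO2 at 395 the lowest (3.26), with MT-CO3 at 562 between them (4.18). MT-ATP6 stood at 580 (4.94). The rRNAs were higher by less, with MT-RNR1 at 2.73 and MT-RNR2 at 2.84, and choroid plexus-like cells had 5.48 rRNA counts for each mRNA count where the other named types had 7.85 to 13.2. Only 0.682% of choroid plexus-like cells had no member, and 553 of them had over 1% from the 10 mRNAs. Their median depth was 6018 transcripts.

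Choroid plexus-like cells lay above the other kept cells of their own well in 12 of 12 wells with at least 20 barcodes of both. The ratio within a well had a median of 3.5, from 1.1 to 6.42. Shares of the type by well ran from 0.155% in well D5 to 1.95% in well B9, and in D5 the share did not exceed the background of that well (0.157%). One of the 2 choroid plexus-like clusters, of 115 barcodes, came mostly from 1 well and held 0.595%, 3.16 times its background, beside 1.19% and 2.79 times in the other.

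Nuclear genes of the same complexes differed less in choroid plexus-like cells. At least 1.5-fold higher were 3 of 36 complex I genes (median ratio 1.12), 2 of 9 of complex III (1.21), 4 of 11 of complex IV (1.37) and 4 of 15 of ATP synthase (1.25), beside 15.9% of all genes. COX8A (2.36), NDUFB5 (2.25), ATP5F1D (2.1) and UQCRB (1.9) had the highest ratios of their lists, and NDUFA9 (0.688), ATP5PF (0.936), COX6C (0.986) and UQCRQ (1.14) were among the lowest. None of 24 genes for mitochondrial gene expression passed, with a median of 0.924, POLG2 at 1.48 and TWNK, the mitochondrial DNA helicase, at 0.716.

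Glycolytic-like cells stood at the other end. Their cluster had the markers BNIP3, PGK1, ENO1, VEGFA and PDK1, which are known targets of the hypoxia response. PDK1 is a kinase that inhibits pyruvate dehydrogenase. All 10 members were at least 1.5-fold lower than in all other kept cells, beside 18.3% of genes, and the median ratio of all genes was 1.05. MT-ND5 stood at 330 CPM (sub-libraries 216 to 392, ratio 0.265), MT-CO1 at 216 (181 to 248, ratio 0.25), MT-ND4 at 161 (0.297) and MT-CYB at 77.8 (0.331). MT-ATP6 had the lowest ratio of the 10 (39.8 CPM, 0.221) and MT-ND2 the highest (47.9, 0.348). The rRNAs were lower by less, at 0.491 and 0.49, and the ratio of rRNA to mRNA was 13.2. In 0 of 14 wells were glycolytic-like cells above the other kept cells of the well, and the ratio within wells ran from 0.118 to 0.56. Without choroid plexus-like cells in the comparison all 10 were still at least 1.5-fold lower (0.327 to 0.466, beside 15.9% of genes, and 0 higher beside 14.2%). No nuclear subunit was at least 1.5-fold lower. At least 1.5-fold higher were 7 of 36 complex I genes (median 1.22), 2 of 11 of complex IV (1.32), 4 of 15 of ATP synthase (1.08) and 4 of 24 genes of mitochondrial gene expression (1.24), beside 14.3% of all genes, with NDUFB4 at 2.04, COX7A2 at 1.55, ATP5MC1 at 1.73 and TFB2M at 1.89. Complex III had none of 9 (1.21). These counts are small and not far from the share of all genes, so they are not read as a shift of these lists.

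The other types differed by less, and their calls depended on whether the choroid plexus-like cells, which held 217652 of the 572892 counts of the members, were part of the comparison. In excitatory neuron-like cells all 10 members were at least 1.5-fold lower than in all other kept cells, with ratios from 0.399 (MT-ND1) to 0.547 (MT-CO2), beside 17.9% of genes, and none was higher, beside 7.3%. Without choroid plexus-like cells 3 of 10 were (MT-ND1 at 0.584, MT-CYB at 0.618 and MT-ND2 at 0.637, beside 15.3%, and 0 higher beside 6.97%), and the ratio of the summed share was 0.707 in place of 0.485. In radial glia-like cells 9 of 10 were lower (beside 12.7%, and 0 higher beside 5.24%), with MT-CO2 at 0.69. Without choroid plexus-like cells none passed in either direction (beside 10.6% lower and 6.44% higher), and the ratio of the summed share was 0.906 in place of 0.624. In intermediate progenitor-like cells 7 of 10 were lower (beside 20.9%, and 0 higher beside 5.05%), and the other 3, MT-CO1, MT-ND5 and MT-CYB, stood between 0.668 and 0.679. Here too none passed without choroid plexus-like cells (beside 19.1% lower and 4.58% higher), with a ratio of 0.947 in place of 0.659. In dividing-like cells none passed in either direction (beside 7.78% higher and 16% lower), and the ratios ran from 0.907 to 1.19. Without choroid plexus-like cells the direction turned, with all 10 ratios above 1, a ratio of 1.42 in place of 0.939, and 4 of 10 at least 1.5-fold higher (MT-ND6 at 1.94, MT-ND1 at 1.59, MT-ATP6 at 1.57 and MT-CYB at 1.52, beside 8.61%, and 0 lower beside 14%). Within wells excitatory neuron-like cells lay above the other cells of the well in 3 of 28 wells, radial glia-like in 5 of 24, intermediate progenitor-like in 3 of 12 and dividing-like in 7 of 28. Without choroid plexus-like cells these counts were 7 of 28, 11 of 24, 7 of 12 and 19 of 27.

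**Figure D3:**
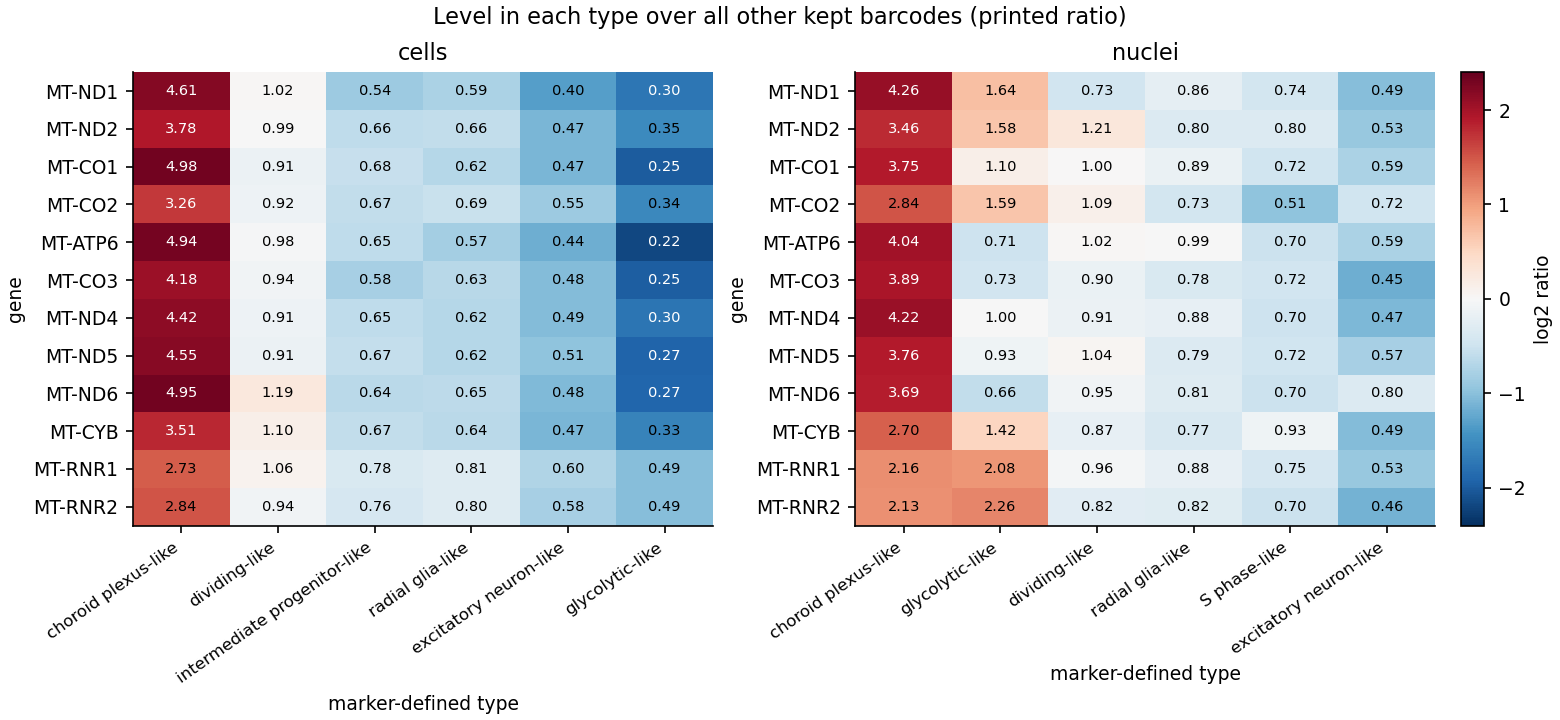
Ratio of the level of each mRNA and of both mitochondrial rRNAs in a marker-defined type to its level in all other kept barcodes of the same library (printed in each cell, colour on a log2 scale). All 10 mRNAs are red in choroid plexus-like barcodes of both libraries, and in glycolytic-like barcodes all 10 are blue in cells while nuclei are mixed.

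The composition of the 10 mRNAs varied between types mostly in the lower members. Over the types of cells MT-ND5 held between 31.9% and 34.6% of the members' counts, MT-CO1 between 20.8% and 24.5% and MT-ND4 between 14.1% and 15.5%. MT-CO2 ran from 3.46% in choroid plexus-like to 5.28% in glycolytic-like cells and MT-CYB from 5.37% to 7.52% in the same types. MT-ND6 ran from 1.81% in unnamed to 2.63% in dividing-like cells.

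In nuclei the levels were far lower, and 1 type stood apart. Choroid plexus-like nuclei (377 barcodes, 2662 counts) held 0.0725% (0.0697 to 0.0753), 3.09 times the background of their wells, but less than the 0.153% and 0.165% of all barcodes of 101 to 500 and 501 to 1000 transcripts. Their cluster had 6 markers, TTR among them, and was led by DYNLT5, FRK, ADGB and TEKT1, of which TEKT1 is a protein of motile cilia. The 12790 genes compared between types of nuclei had at least 5 CPM in all kept nuclei, which 9 of the 10 members reached and MT-ND6 (4.44 CPM) did not. All 9 were at least 1.5-fold higher than in other kept nuclei, beside 16% of these genes (36.9% were lower), from 2.7 (MT-CYB) to 4.26 (MT-ND1), and MT-ND6 had a ratio of 3.69 from 53 counts. Yet 70% of these nuclei had no member, and 2 wells carried much of the value. In well A11 the share was 0.368% over 30 barcodes and in well A12 0.212% over 21, while the other 7 wells lay between 0.0096% and 0.0632%. The type lay below the background of its well in A3 (0.0096% against 0.0312%), A4 (0.0283% against 0.044%) and A5 (0.0226% against 0.0229%). In A10, with 110 barcodes, both were 0.0148%. It lay above the background in A7, A8, A9, A11 and A12. Without A11 the ratio to other kept nuclei was 2.47, and without A11 and A12 it was 1.89, with a share of 0.0264%. The type lay above the other nuclei of its well in 8 of 9 wells, with a median ratio of 2.11.

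Every other named type of nuclei lay below the background of its wells. Glycolytic-like nuclei (743) held 0.0233% (0.778 times background), dividing-like (785) 0.0218% (0.808), radial glia-like (3455) 0.0191% (0.687), S phase-like (1564) 0.0166% (0.635) and excitatory neuron-like (2561) 0.0134% (0.547). The sub-libraries of glycolytic-like and dividing-like nuclei overlapped, and those of the other neighbours did not. The glycolytic-like cluster was led in part by the heat shock genes HSP90AA1 and HSPH1. Its members were not shifted one way as in cells, with MT-ND1 (24 counts, ratio 1.64), MT-CO2 (27, 1.59) and MT-ND2 (23, 1.58) at least 1.5-fold higher, beside 20.7% of genes, and none of the 9 lower, beside 23.9%. MT-ND6, below the limit of 5 CPM, had 7 counts and a ratio of 0.662. Without choroid plexus-like nuclei in the comparison 4 of the 9 were higher, with MT-CYB (1.55) added to these 3 (beside 20.5%, and 0 lower beside 23.2%), and the ratio of the summed share was 1.21 in place of 1.06. Above 5000 transcripts (132 glycolytic-like nuclei) the ratio of the summed share to all other kept nuclei went the other way, to 0.46. The rRNAs of glycolytic-like nuclei were higher, MT-RNR1 at 2.08 and MT-RNR2 at 2.26, with 35.7 rRNA counts for each mRNA count. In excitatory neuron-like nuclei 8 of the 9 members were at least 1.5-fold lower (beside 31.5%, and 0 higher beside 11.8%). Without choroid plexus-like nuclei in the comparison 6 of the 9 were (beside 31.3%, and 0 higher beside 11.7%), as MT-CO1 (0.681) and MT-ATP6 (0.695) no longer passed, and the ratio of the summed share was 0.642 in place of 0.556. In S phase-like nuclei MT-CO2 alone was lower (0.51, beside 16.8%) and none higher (beside 11.2%). In dividing-like nuclei (8.66% of genes higher, 22.8% lower) and radial glia-like nuclei (8.73% and 14.2%) none of the 9 passed, and without choroid plexus-like nuclei the ratio of the summed share was 1.13 in place of 0.985 in dividing-like and 0.984 in place of 0.84 in radial glia-like nuclei. Within wells, also without choroid plexus-like nuclei, dividing-like nuclei lay above the others in 5 of 12 wells (median ratio 0.907). Radial glia-like nuclei did in 2 of 12 (0.774), excitatory neuron-like in 3 of 12 (0.727), S phase-like in 2 of 12 (0.691) and glycolytic-like in 6 of 9 (1.13).

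Depth moved with the share in different ways in the 2 libraries. In cells the share was 0.273% at 10 to 100 transcripts, 0.335% at 101 to 500, 0.318% at 501 to 1000, 0.277% at 1001 to 1500 and 0.269% at 1501 to 2500, and then 0.281%, 0.304% and 0.397% (SD 0.0162) at 2501 to 5000, 5001 to 10000 and over 10000. The deepest class was 1.43 times the shallowest kept class. Within marker-defined types the same ratio was 1.11 in choroid plexus-like, 1.12 in intermediate progenitor-like, 1.25 in excitatory neuron-like and 1.37 in dividing-like cells, 0.968 in radial glia-like and 0.685 in glycolytic-like cells. Within wells it was above 1 in 20 of 32 and had a median of 1.19. MT-ND5 held from 32.8% to 35.8% and MT-CO1 from 20.1% to 23.4% of the members' counts over the 8 classes. Among the lower members the order changed with depth, as MT-ATP6 held 3.77% and MT-CO2 4.41% at 10 to 100 transcripts, but 4.94% and 4.14% above 10000.

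In nuclei the highest shares lay just below the limit on transcripts. The share was 0.0285% at 10 to 100 transcripts, 0.153% at 101 to 500 and 0.165% at 501 to 1000, and in kept nuclei 0.0357% at 1001 to 1500, 0.0224% and 0.0202% in the next classes, 0.0181% at 5001 to 10000 and 0.0278% above that. Barcodes with over 20% mitochondrially encoded transcripts were 882 (6.28%) at 101 to 500 and 137 (8.83%) at 501 to 1000, and they held 48.5% and 64.4% of the members' counts there. Without them the shares were 0.0862% and 0.064%, still above the 0.0271% of the background without them. At 1001 to 1500 transcripts 11 such nuclei held 31.9% of the members' counts, and the share without them was 0.0245%. In cells such barcodes held 3.34% to 4.99% of the members' counts over the 8 classes. Within wells of nuclei the deepest class lay above the shallowest in 1 of 9 wells, with a median ratio of 0.502. Within types the ratio went both ways, at 1.93 in radial glia-like and 1.3 in excitatory neuron-like nuclei, and at 0.863 in S phase-like, 0.612 in dividing-like and 0.519 in unnamed nuclei.

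**Figure D4:**
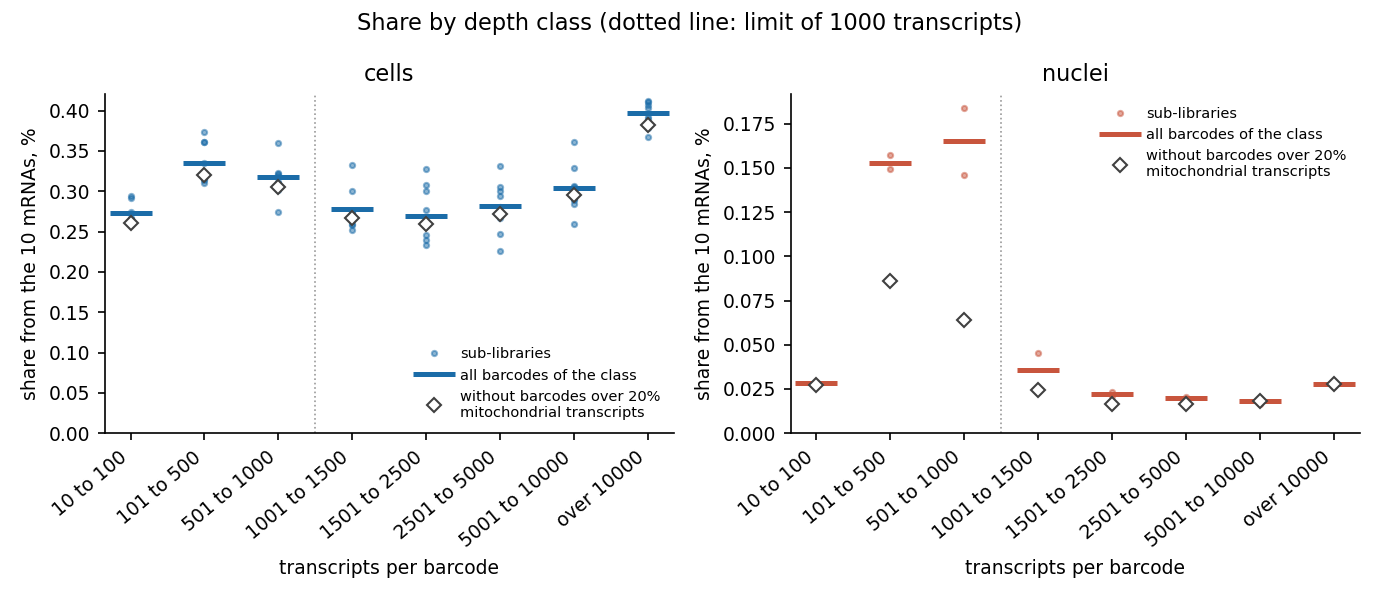
Share of transcripts from the 10 mRNAs by number of transcripts per barcode, for cells and nuclei, with points for sub-libraries. In cells the share lies between 0.269% and 0.397% in all 8 classes, and in nuclei it reaches 0.153% and 0.165% in the classes of 101 to 1000 transcripts and lies between 0.0181% and 0.0357% in kept classes.

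The first-round wells, which hold the samples of a library but of unknown condition, differed widely. Over the 48 wells of cells the share of kept barcodes ran from 0.0457% in C5 through a median of 0.284% to 0.804% in D6, a 17.6-fold range. It was more than 2 times the median in 6 wells and below 0.5 times the median in 11. MT-ND5 ran from 161 CPM (C5) to 2551 (D6), MT-CO1 from 92.2 (C5) to 1848 (D6) and MT-ND4 from 51 (C3) to 1226 (D6). The background of the same wells ran from 0.0496% to 0.608% with a median of 0.221%, and 38 of 48 wells lay above their own background. Across wells the share and its background had a Spearman correlation of 0.931 (Pearson 0.941, n = 48). Both are measured in the same libraries and wells, so this is a description. In well C12 kept cells held 0.137% beside 0.308% in the background, the lowest ratio (0.444), and in D8 0.293% beside 0.143%, the highest (2.05). The correlation with the median depth of the well was 0.117.

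Most members followed each other across wells. The 45 pairs of members had a median Spearman correlation of 0.915 over the 48 wells of cells, with MT-ND1 and MT-ATP6 highest (0.972) and MT-CO2 and MT-ND6 lowest (0.453). The points share depth and well make-up. MT-ND6, the member on the other strand, was highest in well A1, at 547 CPM (1471 counts) beside a median of 64.3 over wells. It held 11.7% of the members' counts there, where MT-CO1 held 22.2% and MT-ND5 36.7%. In nuclei, taken from other samples, the well called A1 also had the highest level of MT-ND6, 18.7 CPM from 18 counts.

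Over the 12 wells of nuclei the share ran from 0.0088% in A10 through a median of 0.0177% to 0.0528% in A11, a 5.99-fold range, beside a background of 0.0105% to 0.0447%. Only A11 and A12 lay above their background. In A11, MT-CO1 reached 165 CPM, MT-ND5 145 and MT-ND4 85. The Spearman correlation of the share with the background was 0.839 (n = 12), and the median over pairs of members was 0.804.

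**Figure D5:**
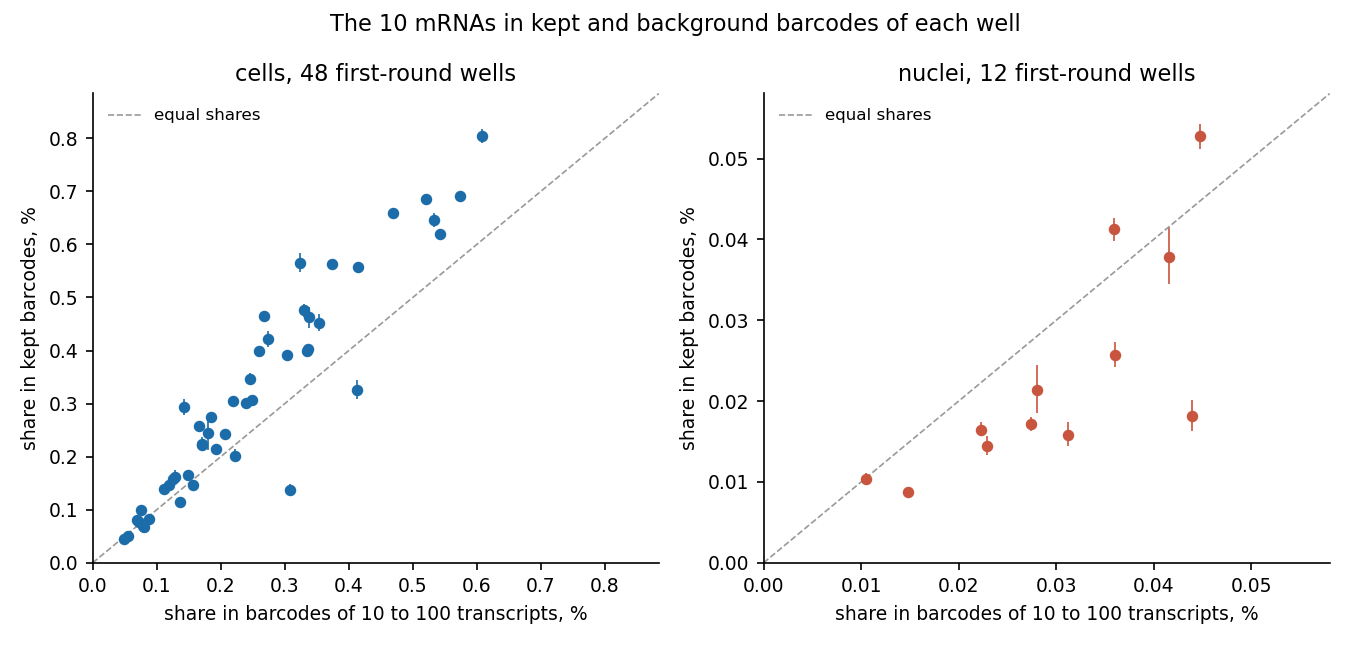
Share of transcripts from the 10 mRNAs in kept barcodes of each first-round well against the share in background barcodes of the same well (linear axes), with a line of equality. In cells 38 of 48 wells lie above the line, and in nuclei 2 of 12 do.

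Across the 22 clusters of cells, the genes whose level was most like that of the summed 10 mRNAs were sought among 4799 genes of at least 0.5 counts per 10000 nonmitochondrial transcripts on average. MT-ATP8 (Pearson r = 0.96), MT-ND4L (0.942), MT-RNR1 (0.892) and MT-RNR2 (0.876) came first, followed by AKAP13 (0.865), a nuclear gene for an anchoring protein of protein kinase A. The points are clusters of 1 library that share wells and depth, and 1 choroid plexus-like cluster (1497 barcodes) had the highest share, 1.19%. Next came 2 unnamed clusters, at 0.632% (96 barcodes, led by BMP3 and FZD10) and 0.621% (42 barcodes), each mostly from 1 well and at 1.12 and 1.25 times its background, and then the other choroid plexus-like cluster at 0.595%.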

How the data were processed

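Reads were split by the authors into sub-libraries (8 of cells, 2 of nuclei) with up to 1 mismatch in the index, and the Parse Biosciences software spipe v.1.0.3 was run on each against GRCh38, Ensembl release 108. The values they deposited are whole-number counts of transcripts per barcode and gene, unfiltered and not normalized. The counting strand and the treatment of reads that match several places are not given in the sources used here, and such reads could move counts between a gene and its copies. Libraries held 254967545 and 82339738 transcripts.

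Counts were summed over barcodes (pandas 2.3.3, numpy 2.4.6, scipy 1.17.1 under Python 3.11.15). Differences were called at 2-fold between libraries and 1.5-fold within a library, among genes of at least 5 CPM, taken as the mean of the 2 groups between libraries and against background, and over all kept barcodes of the library for types, and percentages of all genes called stand beside the members' counts. No edgeR or other test was possible with 1 library per group. Leiden clusters (scanpy 1.11.5, anndata 0.12.19, igraph 0.11.9, scikit-learn 1.9.0) used a resolution of 1, 2000 variable genes free of mitochondrially encoded ones, 15 neighbours and 30 components. A name needed 3 markers at 1.5-fold in 25% of the cluster. A name resting on fewer than 5 markers also needed 1 among its 10 leading genes, a condition added after the marker results were seen. Doublet scores (Scrublet, expected 5% and 3%) called 0 barcodes in both libraries, so doublets were kept and the highest scores were left out as an alternative. Fold calls and both kinds of interval were tested on simulated counts, and thinning was checked on a part of the kept barcodes. Clustering, naming, the background of own wells and ratios within wells were not tested in this way. The members, marker lists and gene lists were chosen with earlier results of these data known. Named are all members, the other mitochondrial genes, nuclear copies, the 2 highest and 2 lowest genes of each list, the 5 genes most like the members across clusters and leading genes of clusters, not all of them printed. Figures were drawn with matplotlib 3.10.9.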

Additional observations from a re-analysis of the deposited data

How the results depend on the processing

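The summed share of kept cells against their background turned direction without choroid plexus-like cells. Dividing-like and unnamed cells taken alone stayed above the background of all wells. None of the other summary values below turned under these alternatives, but single members and types did. MT-CYB of kept cells lay below barcodes of 101 to 500 transcripts, and the ratio of deep to shallow cells was 0.685 in glycolytic-like and 0.968 in radial glia-like cells. With choroid plexus-like barcodes left out of the comparison, dividing-like ratios of the summed share turned from 0.939 to 1.42 in cells and from 0.985 to 1.13 in nuclei. Within wells the median ratio without them was 1.2 in dividing-like cells but 0.907 in dividing-like nuclei. Glycolytic-like nuclei (1.06) stood at 0.46 above 5000 transcripts, 0.838 at resolution 2 and 0.983 with another seed. They stood at 1.18 at resolution 0.5 and 1.1 with mitochondrial genes kept for clustering. Radial glia-like nuclei (0.84) stood at 1.05 above 5000 transcripts and dividing-like nuclei at 1.09 with another seed. The median ratio of cells to nuclei stayed between 18.2 and 18.7. Of the alternatives to the main values, 29 moved by more than 1 SD between sub-libraries and 29 did not. The share in cells (0.363%) was 0.347% under the limits of the study, 0.381% above 5000 transcripts, 0.303% as a mean and 0.197% as a median over barcodes. The limits of the study were set here on raw counts, without its decontamination and doublet calling. They kept 29208 barcodes of cells, which is not the set of cells that the study used. The share in nuclei (0.0221%) was 0.0179% without the well with the highest share (A11), 0.0257% without the lowest (A10) and 0 as a median over barcodes. The median ratio of kept to background barcodes was 1.17 in cells (1.32) and 0.141 in nuclei (0.724) against barcodes of 100 to 500 transcripts, and 0.752 in nuclei against 10 to 50. At 2000 transcripts 88.2% of cells and 20.3% of nuclei had a member, and without thinning 91.5% and 32%. The barcodes that carried the choroid plexus-like name changed with the clustering and are given in parentheses. The choroid plexus-like ratio in cells (4.47, 1612 barcodes) was 5.22 at resolution 2 (696), 5.34 with another seed (595) and 3.5 within wells. In nuclei (3.74, 377 barcodes) it was 2.65 at resolution 0.5 (1303), 3.17 at resolution 2 (869), 2.58 with mitochondrial genes kept for clustering (397) and 2.52 with another seed (826). It was 3.31 above 5000 transcripts, 2.11 within wells, 2.47 without A11 and 1.89 without A11 and A12. The ratio of deep to shallow cells (1.43) was 1.11 within types and 1.19 within wells. Divided by gene length, MT-ND5 held 22.8% of the members in cells (33.1%) and 20.1% in nuclei (28.6%). For values changed by an alternative's clusters or background the cause was not tested. The ratios within wells, without single wells and without choroid plexus-like barcodes, names without the added condition, and the exclusion of combinations kept in several sub-libraries or in both libraries were chosen after seeing the data. Named without the added condition, radial glia-like cells (0.624) stood at 0.869 over 2511 barcodes. Glycolytic-like cells (0.275) stood at 0.25 over 3551. Radial glia-like cells and S phase-like nuclei had no named cluster at resolution 0.5, and a median over barcodes gave no ratio between wells of nuclei. No paired analysis was possible because each library is 1 sample, so the groups share 1 replicate number and no test was run. The median nucleus held no member although nuclei were deeper than cells (3883.5 and 2613 transcripts). Levels of single members in types of nuclei rest on few counts, down to 7 of MT-ND6 in glycolytic-like nuclei.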
